A study of Mus musculus with 2 samples.

Results

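Genes of the tumor necrosis factor (TNF) ligand and receptor superfamily, with the adaptors and inhibitors that act directly below the receptors, were compared between mouse bone marrow-derived macrophages (BMDMs) kept with medium and BMDMs kept with the culture supernatant of apoptotic cells. Members were taken by gene symbol alone, as symbols that begin with Tnfsf or Tnfrsf followed by a digit together with Ltb, Lta, Fas, Fasl, Cd40, Cd27, Traf1 to Traf6, Birc2 and Birc3. This gave 40 genes of the 18194 that the array's annotation names by a probe set of their own. The cells were macrophages grown with M-CSF for more than 7 days from the marrow of C57BL/6J females aged 8 weeks, and no gene was altered in them. In the control, BMDMs stood for 1 hr with medium, which the labels give as RPMI with 10% FCS. In the other group they stood for 1 hr with the supernatant of W3 cells, a mouse T cell line carrying Fas, that had received Fas ligand for 30 min and then, after a wash, had been kept for 60 min in medium with 1% FCS. Serum content, products of W3 cells in culture and products of their apoptosis therefore cannot be told apart, and no array of BMDMs with living W3 cell supernatant was analysed here.

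Ligands of this superfamily are mostly trimeric membrane proteins, some of which are shed. Their receptors carry cysteine-rich repeats outside the cell and fall by their cytoplasmic parts into those with a death domain, which can recruit FADD and caspase-8, those that bind TRAF adaptors directly, and decoys that bind ligand without a full signal. Most TRAF proteins, but not TRAF1, and the cellular inhibitors of apoptosis (cIAPs) are ubiquitin ligases of the receptor complex, through which NF-kB and MAP kinases are activated. Macrophages are a main source of TNF, and they respond to TNF through both of its receptors, to RANK ligand by becoming osteoclasts, and to CD40 ligand on T cells. FasL, the ligand used here to kill W3 cells, and its receptor Fas are themselves members.

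Expression was read as the MAS5 signal, a linear intensity, from a lone array for each condition. Without replicates, neither p-values nor SDs between cultures can be given, and precision is limited by the number of arrays. A signal was taken as measured above a floor of 38.4, set from 80 probe sets of olfactory and vomeronasal receptors, and lower signals were set to it before a ratio was formed, so that a ratio with 1 signal under the floor is a bound. The signals of these receptor probe sets themselves reached 62.4 with medium and 44.7 with the supernatant. In bulk RNA, fewer cells expressing a gene and less RNA per cell cannot be told apart. All 8 macrophage markers with a probe set were above the floor on both arrays, with Csf1r, Adgre1 and Cd68 among them. Mertk was 2.23-fold higher with the supernatant (471 and 1050) and Cd14 1.30-fold higher. In all, 3 of the 8 had a ratio above 1 and 5 below, the lowest being 0.90 (Fcgr1). Of 11 T cell markers 7 were under it on both arrays, and Cd3d, Cd3e and Cd3g read from 1.51 to 14.3. The 4 measured T cell markers went different ways. Zap70, which makes up most of their sum, was 1.51-fold higher (208 and 313), while Cd5 was 1.54-fold lower (65.9 and 42.8), Cd8a at least 1.90-fold lower (72.9 and 20.7) and Ptcra at least 1.08-fold lower. Of 6 neutrophil markers the 3 measured ones were higher with the supernatant, S100a8 by 1.18-fold, and Elane and S100a9 by at least 1.35-fold and 1.90-fold from signals under the floor (S100a9 read 5.85 and 73.0). Of 5 NK cell markers 1 was measured, Prf1, which was 1.60-fold higher (41.6 and 66.5). The measured B cell, dendritic cell and stromal markers lay within 1.5-fold after the floor. The part of RNA from cells other than macrophages in the differences below was not tested.

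Of the 40 members, 25 exceeded the floor on both arrays and 3 on 1 of them, 28 in all. The other 12 were under it on both arrays and have no ratio. No measured member reached a 2-fold difference in either direction. Over all 11977 measured genes 0.96% were at least 2-fold higher with the supernatant and 0.843% at least 2-fold lower. At 1.5-fold, 1 member was higher, the receptor gene Tnfrsf4, against 3.71% of all measured genes. The 4 members lower by at least 1.5-fold were Ltb, Traf5, Cd40 and Tnfsf13os, against 4.47% of all measured genes. No direction can be given for Tnfsf13os, whose probe sets disagree, and 3 are left without it. The median log2 ratio of the measured members was -0.14, beside -0.02 for all measured genes, and 19 of 28 members (67.9%) had a ratio below 1, beside 54.6% of all genes. Without Tnfsf13os and Tnfrsf10b, for which no direction can be given, it was 18 of 26 (69.2%). This count still holds Tnfsf13b, Tnfrsf11a and Tnfrsf1b by their brightest probe sets, though each also has a probe set on the other side of 1. Differences of this size were commoner among dim genes. In the dimmer part of all measured genes, with a mean signal under 550, 14.0% passed 1.5-fold in one direction or the other and in the brighter part 2.32%. The 5 members past 1.5-fold were all among the 20 dimmer ones, and 0 of the 8 brighter members were past it. The lower median was likewise found only in the dimmer members. Their median log2 ratio was -0.17, and that of the 8 brighter members was 0.09. Over all measured genes the dimmer and brighter parts had medians of -0.06 and -0.01.

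**Figure D1:**
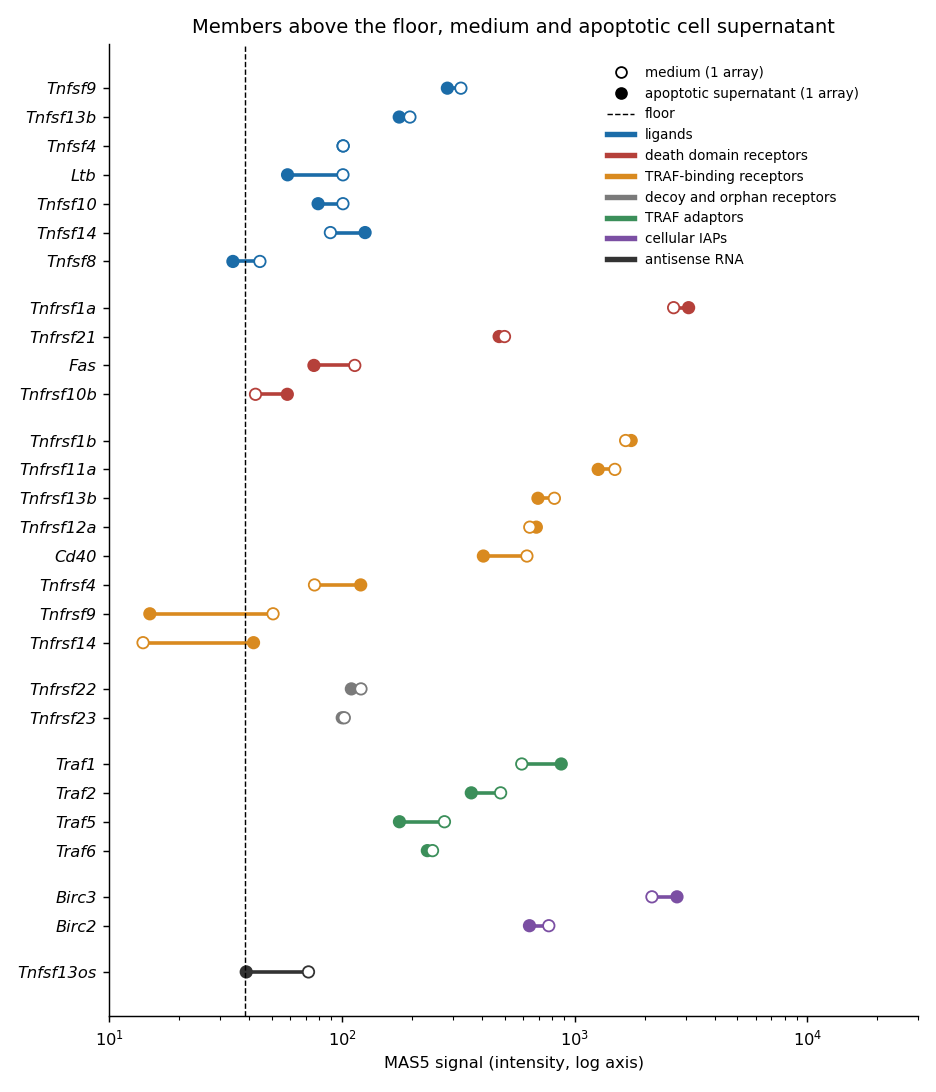
MAS5 signal (intensity, log axis) of the 28 measured members grouped and coloured by role, with open circles for the medium array, filled circles for the supernatant array and a dashed line at the floor, 38.4. The circles of most members lie close together, as for Tnfrsf1b at 1655 and 1748, while Ltb (101 and 58.3) and Tnfrsf4 (76.2 and 120) show a visible gap.

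Among the ligands, Ltb had the largest difference. It encodes lymphotoxin beta, which anchors lymphotoxin alpha at the cell surface and signals through the lymphotoxin beta receptor. Ltb read 101 with medium and 58.3, thus 1.73-fold lower, with the supernatant on its only probe set. The supernatant signal was dim, though above the 44.7 that olfactory and vomeronasal receptor probe sets reached on that array. Tnfsf14, which encodes LIGHT, a further ligand of the same receptor, was on the opposite side, with 89.1 and 126 (1.41-fold higher), while its second probe set was under the floor on both arrays and the mean of its probe sets gave a log2 ratio of -0.42. Tnfsf10, the gene of the death ligand TRAIL, read 101 and 78.9, 1.28-fold lower, and its other 2 probe sets were also lower. Ligands that costimulate T cells differed less. Tnfsf9 (4-1BB ligand) read 324 and 284, a ratio of 0.87, and Tnfsf4 (OX40 ligand) read 101 on both arrays, a ratio of 1.00. Tnfsf13b, the B cell survival factor BAFF, read 196 and 176, a ratio of 0.90. A dim probe set of Tnfsf13b went the other way, from 34.9, under the floor, to 48.8 (at least 1.27-fold higher). Tnfsf8 (CD30 ligand) was barely above the floor with medium (44.4) and under it with the supernatant (34.0). Of the 7 measured ligands 6 had a ratio below 1, with a median log2 ratio of -0.19. The shares below 1 were 67.9% of all measured members and 54.6% of all measured genes. The 6 include Tnfsf8, whose ratio is a bound, and Tnfsf4, whose ratio turned above 1 under all 3 other scalings. Fasl, Lta and Tnfsf11, the genes of Fas ligand, lymphotoxin alpha and RANK ligand, stayed under the floor, at no more than 17.2. Lta being under the floor, the lymphotoxin pair was read only through Ltb.

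Promoters were examined for elements through which the receptors' own signal or cAMP act on genes. RefSeq windows of GRCm38.p6, from 250 bases before to 50 after a transcription start, were at hand for 33 of the 40 members, in 38 windows. The NF-kB consensus, searched by its degenerate letters on both strands, was found in the windows of 3 members, Ltb, Tnfrsf9 and Tnfrsf8, and in 4.51% of 32851 windows of all genes. The full cAMP response element (CRE), TGACGTCA, was found only in a window of Birc2 among the members, and in 1.79% of all windows. The AP-1 element, TGANTCA, was found in windows of 5 members, Tnfrsf8, Tnfrsf9, Tnfsf13b, Tnfsf14 and Fas, and in 7.81% of all windows. Counted by window, as the shares are, the NF-kB consensus was in 3, the CRE in 1 and the AP-1 element in 6 of the 38 member windows. The last 120 bases before the start are shown for Ltb, the member with the largest difference of a protein-coding gene, for Tnfrsf9, whose match reads as NF-kB consensus in 2 overlapping registers, and for Birc2. They lie at chr17:35194387-35194506 on the plus strand (Ltb), chr4:150927879-150927998 on the plus strand (Tnfrsf9) and chr9:7837058-7837177 on the minus strand (Birc2), and capitals mark the NF-kB consensus in Ltb and Tnfrsf9 and the CRE in Birc2.
Ltb: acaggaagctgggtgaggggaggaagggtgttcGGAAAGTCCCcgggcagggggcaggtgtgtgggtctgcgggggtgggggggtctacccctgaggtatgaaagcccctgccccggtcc
Tnfrsf9: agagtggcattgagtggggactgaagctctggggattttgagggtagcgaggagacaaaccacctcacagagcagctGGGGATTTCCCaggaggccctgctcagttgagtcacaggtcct
Birc2: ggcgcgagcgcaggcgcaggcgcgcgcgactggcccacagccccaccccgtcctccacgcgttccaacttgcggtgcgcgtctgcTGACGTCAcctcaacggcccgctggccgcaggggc
The matches begin 87 bases before the start in Ltb, 43 in Tnfrsf9 and 35 in Birc2. Of the 7 members with a match to any of these elements, 6 were measured, of which 5 had a ratio below 1 and 1 above. Ratios below 1 made up 67.9% of all measured members and 54.6% of all measured genes. Whether a match goes with a direction was not tested. Ltb was 1.73-fold lower, Birc2 1.21-fold lower, Tnfrsf9 at least 1.32-fold lower and Fas 1.498-fold lower. On their brightest probe sets Tnfsf13b was 1.11-fold lower and Tnfsf14 1.41-fold higher. A dim probe set of Tnfsf13b went the other way, and Tnfrsf8 was under the floor. A match describes letters and was not tested as a site.

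The death domain receptors were measured for 4 of 5 genes, and the ratios of their brightest probe sets ran from 0.67 to 1.37. Tnfrsf1a, the gene of the TNF receptor found on most cells, read 2661 and 3086, 1.16-fold higher. Tnfrsf21, which encodes death receptor 6, read 499 and 473, and its second probe set was also lower, at a ratio of 0.85. Fas had the largest difference of the group, with 113 and 75.7 on its only probe set, 1.498-fold lower and just short of the 1.5-fold threshold. Tnfrsf10b, the TRAIL receptor, read 42.5 and 58.2. Its other probe set was on the opposite side (45.0 and 18.6), so no direction can be given for it. Tnfrsf25 was under the floor on both arrays. The decoy receptors for TRAIL, Tnfrsf22 and Tnfrsf23, read 121 and 110, and 102 and 100.2, the latter ratio turning above 1 under the other scalings. Tnfrsf11b, the gene of osteoprotegerin, a soluble decoy for RANK ligand, was under the floor.

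Of 14 receptors that bind TRAF proteins directly 8 were measured, and they include Tnfrsf4 and Cd40, which differed in opposite directions. Cd40, the receptor through which T cells stimulate macrophages, read 623 and 405, 1.54-fold lower. The other 2 probe sets of Cd40 were lower as well, with ratios of 0.74 and 0.85. Tnfrsf4, which encodes OX40, a costimulatory receptor studied mainly on T cells, read 76.2 and 120, 1.58-fold higher, on its only probe set. The gene of its ligand, Tnfsf4, had a ratio of 1.00.
The bright receptors of this group lay near a ratio of 1. Tnfrsf1b, the second TNF receptor, read 1655 and 1748, a ratio of 1.06, while a dimmer probe set of the gene read 123 and 83.9, a ratio of 0.68, and the mean of its probe sets gave a log2 ratio of -0.23. Tnfrsf11a (RANK), the receptor that drives macrophage precursors into osteoclasts, read 1488 and 1261 on its brighter probe set, a ratio of 0.85, and 748 and 768 on the other, a ratio of 1.03. Tnfrsf13b (TACI), a receptor for BAFF, read 818 and 695, 1.18-fold lower. Tnfrsf12a (Fn14), the receptor for TWEAK, read 641 and 684, 1.07-fold higher, and 1.19-fold higher on the second probe set.
Tnfrsf9 (4-1BB) was above the floor only with medium (50.5 and 14.9) and Tnfrsf14 (HVEM), a receptor for LIGHT, only with the supernatant (14.0 and 41.7). Each leaves a bound, at least 1.32-fold lower and at least 1.08-fold higher, from signals within the range of the olfactory and vomeronasal receptor probe sets on the same array. Cd27, Tnfrsf8 (CD30), Tnfrsf13c (BAFF receptor), Tnfrsf17 (BCMA), Tnfrsf18 (GITR) and Tnfrsf19 (TROY) were under the floor on both arrays. Several ligands and receptors were thus measured without their partner. Tnfrsf11a and Fas were above the floor while Tnfsf11 and Fasl were under it, and Tnfsf13b was measured with Tnfrsf13b but without Tnfrsf13c and Tnfrsf17.

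Below the receptors, Traf1 and Birc3 were higher with the supernatant and Traf5 and Traf2 lower. Traf1, an adaptor without a RING domain, read 592 and 875, 1.48-fold higher, and 347 and 429 on its second probe set, 1.24-fold higher. Birc3 (cIAP2) read 2147 and 2751, 1.28-fold higher, and its dimmer probe set was 1.24-fold higher. Birc2 (cIAP1) was on the opposite side, with 774 and 639, 1.21-fold lower. Traf5 read 276 and 177, 1.56-fold lower. Its other probe set was at the edge of the floor on both arrays, at 39.5 and 39.2, and shows no difference. Traf2, the adaptor that carries cIAPs to the TNF receptor complex, read 480 and 359, 1.34-fold lower, on 1 probe set. Traf6, which serves CD40, RANK and the Toll-like receptors, had a ratio of 0.95 on its brightest probe set (245 and 233) and of 0.66 on the next (182 and 120). Traf4 was under the floor, and Traf3 was not analysed here.

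Probe sets of the same member give the nearest thing to a repeat that these arrays hold. Of 11 members with 2 or more probe sets that both arrays read above the floor, 9 had all of them on the same side of 1, Tnfrsf11a and Tnfrsf1b being the exceptions. Traf5 is among the 9 only by a second probe set at the edge of the floor, with a log2 ratio of -0.01. Probe sets under the floor on 1 array were left out of this count. With them, Tnfrsf10b, Tnfsf13os and Tnfsf13b each had probe sets on opposite sides of 1. The ratios of Cd40 ran from 0.65 to 0.85, those of Traf1 from 1.24 to 1.48 and those of Birc3 from 1.24 to 1.28. Over 5196 genes of the whole array, the ratios of the 2 brightest probe sets differed with an SD of 0.25 per probe set on the log2 scale, a measure of disagreement on these arrays that covers no biological error. Tnfrsf4, Ltb, Fas and Traf2 rest on 1 probe set each. Tnfsf13os, which RefSeq lists as a long noncoding RNA and which entered by its symbol, read 71.8 and 38.8 on the chosen probe set, 1.85-fold lower. Its second probe set went the other way, from 38.0, under the floor, to 61.3 (at least 1.60-fold higher), so no direction can be given for it. It is named as the opposite strand of Tnfsf13, and reads of overlapping genes are uncertain.

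**Figure D2:**
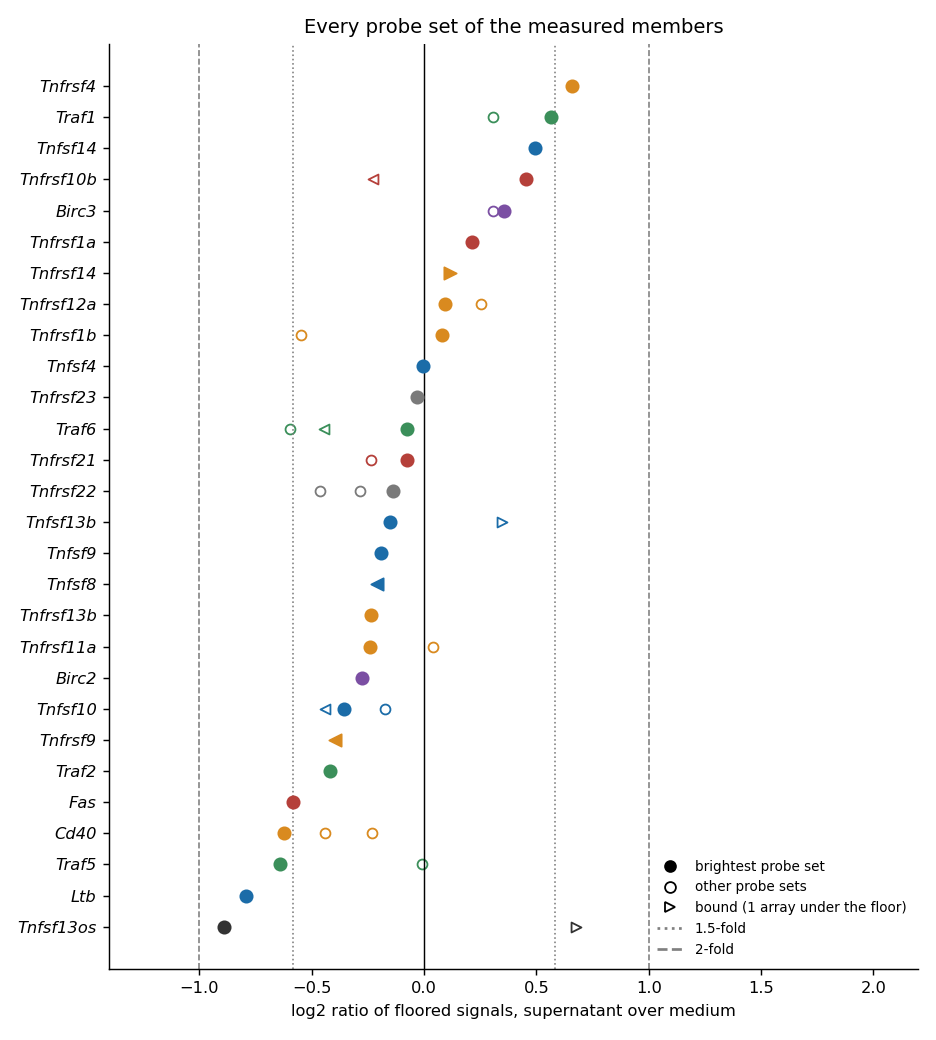
Supernatant-to-medium log2 ratio, after the floor, for every probe set of the 28 measured members that was above the floor on at least 1 array. Filled symbols mark the brightest probe set, open symbols the others, triangles bounds, and dotted and dashed lines a 1.5-fold and a 2-fold difference, with colours for roles as in the plot of signals. No probe set reaches a 2-fold difference, and the 3 of Cd40 all lie left of 0.

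**Figure D3:**
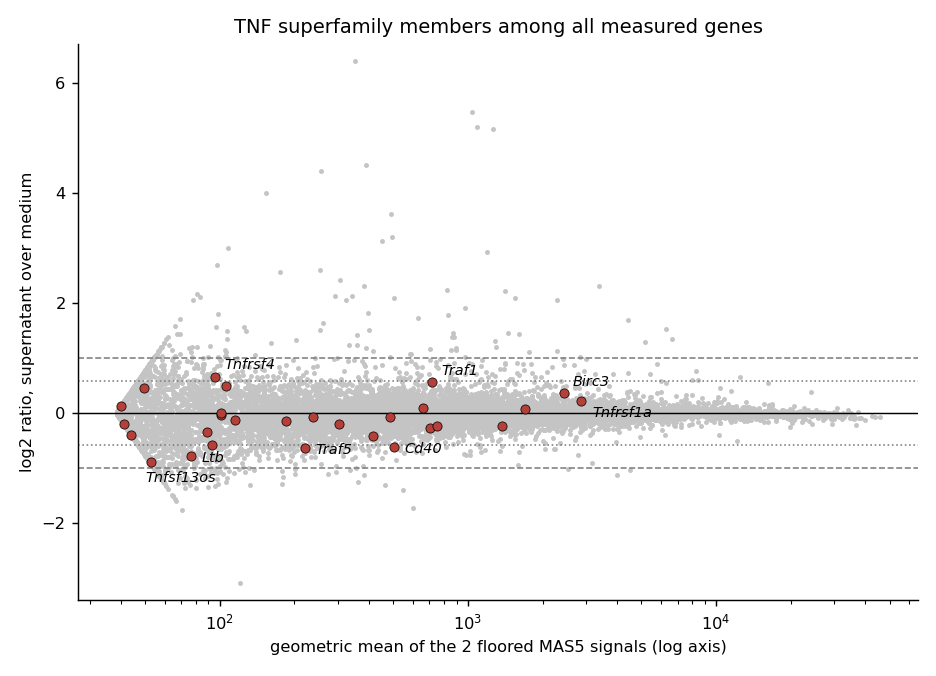
Log2 ratio against the geometric mean of the 2 floored MAS5 signals (log axis) for all 11977 measured genes (grey) and the 28 measured members (red), with dotted and dashed lines at 1.5-fold and 2-fold. The slanting edges at the left come from the floor. The members lie inside the dashed lines, and those past the dotted lines are toward the dim side.

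The rest of the pathway was described from lists of genes, which were chosen with earlier results of these data known. Of 21 measured genes of the receptor signalling complex, 0 passed 1.5-fold, with a median log2 ratio of -0.04. The largest differences were in Tab1, which activates the kinase TAK1 (1.34-fold lower), Tank, a TRAF-binding regulator (1.30-fold higher, 3825 and 4971), Traf3ip3 (1.27-fold lower) and Map3k7, the gene of TAK1 itself (1.20-fold higher). Of 10 measured genes of the death-inducing complex 0 passed 1.5-fold, with a median log2 ratio of -0.08. In this complex 8 had a ratio below 1, beside 9 of 11 housekeeping genes (median log2 ratio -0.055) and 54.6% of all measured genes. Mlkl, the effector of necroptosis, was 1.39-fold lower (876 and 628), Fadd 1.33-fold lower (754 and 566) and Bid, which links caspase-8 to mitochondria, 1.29-fold lower, while Cflar, the inhibitor of caspase-8 at this complex, was 1.12-fold higher.
All pathway genes at least 2-fold higher were on the lists of NF-kB genes. The share over all measured genes was 0.96%. On the canonical list 2 of 6 measured genes were at least 2-fold higher, the subunit gene Rel (233 and 547, 2.35-fold) and Nfkbid, a nuclear IkB protein (598 and 1352, 2.26-fold), whereas Nfkbia, the main IkB inhibitor, had a ratio of 0.92 and Bcl3, which binds NF-kB in the nucleus, a ratio of 1.13. The median log2 ratio of this list was 0.13. On the list of the alternative arm 1 of 7 was at least 2-fold higher, Nfkbie (858 and 1968, 2.29-fold). Nfkbie encodes an IkB that holds NF-kB dimers in the cytoplasm, which is the work of the canonical arm. Nfkb2 and Relb, the subunits of the alternative arm, were 1.44-fold and 1.41-fold higher. This list, with a median log2 ratio of 0.36, also holds Traf2, Birc2 and Birc3, and is no separate evidence for them. Among genes for shedding and mRNA decay, 1 of 9 passed 1.5-fold, against 3.71% of all measured genes higher and 4.47% lower. It was Zfp36 (tristetraprolin), which destabilizes Tnf mRNA (4248 and 7843, 1.85-fold higher). The median log2 ratio of this list was -0.01. Next in size were Rhbdf1, a partner of the TNF sheddase (79.3 and 57.6, 1.38-fold lower), Sppl2b, an intramembrane protease (1.20-fold higher), and Zfp36l1, a relative of Zfp36 (1.15-fold lower). The gene of the sheddase itself, Adam17, had a ratio of 0.94.
Superfamily genes whose symbols fall outside the rule gave 6 measured genes of 11. Tnf itself read 503 and 251, 2.01-fold lower, while the genes of both its receptors stayed within 1.16-fold of the medium signal on their brightest probe sets. Ltbr, the receptor for lymphotoxin beta and LIGHT, read 1097 and 1070. Edaradd was at least 1.76-fold lower and Eda at least 1.41-fold higher, each with 1 signal under the floor, and Traf7 was 1.13-fold higher. Cd40lg and Cd70, ligands of activated lymphocytes, were under the floor on both arrays.

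**Figure D4:**
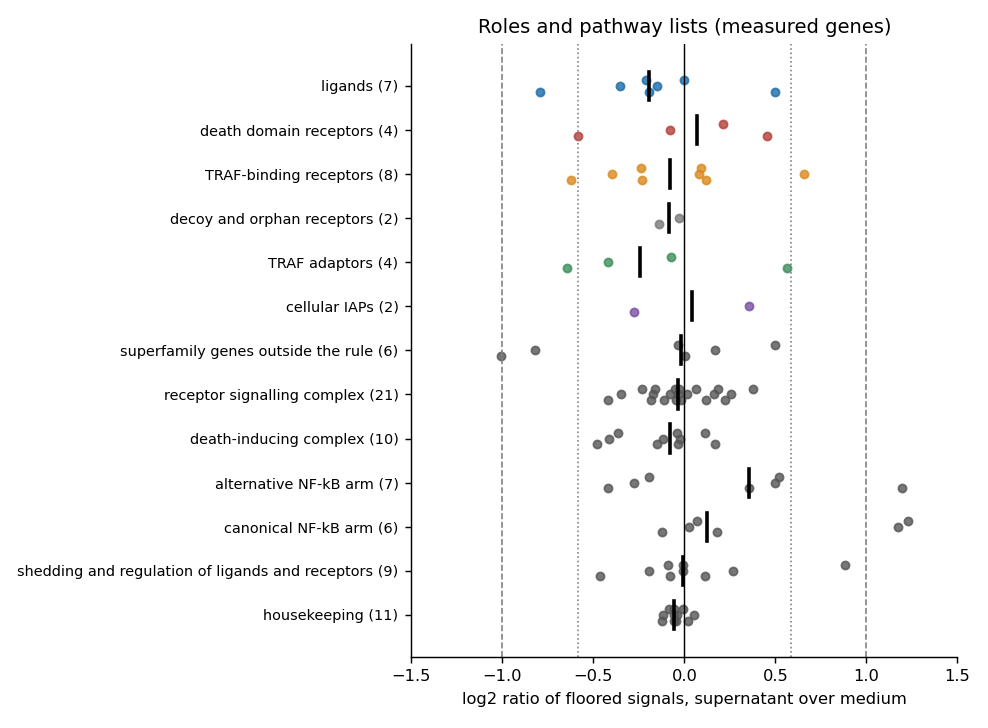
Supernatant-to-medium log2 ratio, after the floor, of single measured genes (points), for the members by role, the pathway lists and the housekeeping genes, with the number of measured genes in brackets, the median as a black bar, and dotted and dashed lines at 1.5-fold and 2-fold. Points right of the dashed line are Rel, Nfkbid and Nfkbie, the leftmost point is Tnf at -1.01, and the 11 housekeeping genes lie between -0.12 and 0.05.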

How the data were processed

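RNA of 2 BMDM cultures was hybridized to Affymetrix mouse genome arrays, 1 per condition. For 45101 probe sets the authors deposited a linear intensity, the MAS5 signal. The mean after trimming 2% at each end was 500.0 on both arrays, so each carries 1 scaling factor. Conditions came from the labels.

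The annotation gave 34958 probe sets a gene of their own. Probe sets given to several genes were used for no gene. Where a gene had several probe sets the brightest, by mean signal, stood for it. The floor of 38.4 was the 95th percentile over the olfactory and vomeronasal receptor probe sets, taken on whichever array gave the higher value. Genes above it on at least 1 array were compared as log2 ratios, with no test. Every measured member is named, and for each pathway list the 4 genes with the largest difference, with Tnf and Ltbr added. Adam17 and the pathway genes at or under the floor were named after their values were seen. The members and lists were chosen with earlier results of these data known. Steps were tested on simulated data. Alternatives covered 3 scalings, 4 treatments of dim signals and 2 choices of probe set. Calculations used Python 3.11.15 with pandas 2.3.3, numpy 2.4.6, statsmodels 0.14.6 (loess) and scipy 1.17.1, and plots matplotlib 3.10.9.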

Additional observations from a re-analysis of the deposited data

How the results depend on the processing

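No paired analysis was possible because both conditions were read on a lone array, and leaving out a replicate was impossible for the same reason. The absence of a 2-fold difference among members held under all alternatives but the 2 that removed or lowered the floor of 38.4. The pseudocount and the averaged probe sets also let signals under 38.4 count in a ratio. With no floor 3 members were at least 2-fold higher and 5 lower, and with a lower floor of 10.0 (the receptor probe sets' median) 2 and 1. Over all genes at these settings, 10.3% and 11.6% were at least 2-fold higher and lower with no floor, and 5.96% and 7.08% with that of 10.0. The count at least 1.5-fold higher, 1 in the report, was 2 after median-centring (Traf1 added), 2 with loess (Tnfsf14 added), 5 with no floor and 4 with that of 10.0, where 15.1% and 11.2% of all genes passed. The count at least 1.5-fold lower, 4 in the report, was 10 with no floor and 7 with that of 10.0 (17.3% and 13.8% of all genes), 2 with a doubled floor, 76.8 (Cd40 and Traf5), 1 with the floor added as a pseudocount (Tnfrsf9) and 2 when all probe sets of a gene were averaged (Ltb and Traf6, the latter at -0.84 against -0.07). It was 3 under each of the 3 scalings and without suffixed probe sets. Cd40 lost its place on median-centring (-0.58), and Traf5 with quantile normalization (-0.58) and loess (-0.57), all beside the 1.5-fold limit. Leaving out Tnfrsf10b and Tnfsf13os, a choice made after seeing the data, gave 3 lower and 1 higher. The median log2 ratio of the members, -0.14 in the report, ran from -0.21 with the averaged probe sets to -0.06 with loess. Over all genes it was -0.03 and 0.002 at these 2 settings. Tnfrsf4 passed 1.5-fold under all alternatives but the pseudocount, where its log2 ratio was 0.47. Of 245 values of single members under the alternatives, 228 moved by less than the SD between probe sets, 17 by more, and none past 1.5-fold changed sign. Many of the 228 could not move. Another floor leaves bright members as they were, and the choice of probe set leaves members with 1 probe set unchanged. With the averaged probe sets 7 values moved by more than the SD and 20 by less. Short of 1.5-fold, 3 members changed sign with the averaged probe sets, Tnfsf14 (-0.42 against 0.50), Tnfrsf10b (-0.19 against 0.45) and Tnfrsf1b (-0.23 against 0.08), and Tnfsf4 and Tnfrsf23, near a ratio of 1, did under all 3 scalings. Cd40 has no value when probe sets with an _s, _x or _a suffix are dropped. The log2 ratio of Traf1 ran from 0.43 to 0.60 and that of Ltb from -0.79 to -0.39. Precision is limited by 1 array per condition, and 3 measured members (Tnfrsf14, Tnfrsf9 and Tnfsf8) never exceeded the brightest receptor probe set of the same array.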

Other observations

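Tnfsf12 (TWEAK) and Tnfsf13 (APRIL), adjacent ligand genes that also yield a fusion transcript, are read on this array only by probe sets that the annotation gives to more than 1 gene, so they entered no comparison. The probe set shared by Tnfsfm13, Tnfsf13 and Tnfsf12 read 1240 with medium and 1275 with the supernatant, a ratio of 1.03. The probe set shared by Tnfsfm13 and Tnfsf12 read 569 and 469, a ratio of 0.82. A probe set shared by the decoy receptor genes Tnfrsf22 and Tnfrsf23 read 341 and 351, a ratio of 1.03, while all 3 probe sets of Tnfrsf22 alone had ratios from 0.73 to 0.91.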
